A study of Homo sapiens with 10 samples.

Results

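The fatty acid elongase and lipogenesis genes described here are 10 genes: the elongases ELOVL1 to ELOVL7, the fatty acid synthase gene FASN, the stearoyl-CoA desaturase gene SCD and the lipogenic transcription factor gene SREBF1. They were chosen from the Rb peaks of the libraries described here, by whether a peak touched the promoter, taken as 2000 bp upstream to 500 bp downstream of any transcript start in GENCODE release 44. All 10 genes were found among 19970 protein-coding genes on chromosomes 1 to 22 and X, and 59 of the 87112 Rb peaks lay at their promoters. Because the peak calls in these libraries were known when the genes were chosen, the counts and heights below are descriptions and carry no test.

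Rb was profiled by CUT&RUN, in which an antibody directs a nuclease to its target on chromatin and the released fragments are sequenced. OVCAR-3 and Kuramochi, both established human lines of high-grade serous ovarian cancer, were used and were given as wild type. Each received INX-315, an inhibitor of CDK2, at 300 nM for 2 days, or an equal volume of the solvent DMSO, and each treatment had 2 Rb libraries. Each line also had 1 IgG2a library, from DMSO-treated cells, which served as the control for peak calling, so that no control library came from INX-315-treated cells. The experiment was run once, with separate biological replicates in each arm.

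Fatty acid synthase builds palmitate from malonyl-CoA, and the elongases catalyse the rate-limiting condensation that lengthens acyl chains in the endoplasmic reticulum, each with its own preference for chain length and saturation. Stearoyl-CoA desaturase places the double bond that makes oleate, and SREBP-1, the product of SREBF1, activates transcription of most of these enzymes. Rb binds promoters through E2F factors when it is not phosphorylated by the cyclin-dependent kinases, CDK2 among them, and such binding is best known at genes of DNA replication and mitosis.

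The lists held 5221 to 8794 peaks in the 4 DMSO libraries and 13031 to 17281 in the 4 treated ones. Neither IgG2a list, of 257 peaks in OVCAR-3 and 195 in Kuramochi, held a peak at any of the 10 promoters. Only 25 and 12 of those peaks lay on chromosomes 1 to 22 and X, so their absence at 10 promoters says little. The files hold no read totals, but whole fragment numbers could be recovered for 96.3 to 100% of the peaks tried, and the genome-wide mean was 0.216 to 0.501 fragments per base in the Rb libraries. Summit height is given here as the fragments at the summit divided by that mean. At mean background a peak needed 3 to 5 fragments, or a height of 9.51 to 13.9, so that an uncalled promoter is one not detectable at this depth and not one shown to lack Rb.

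The sequences under 5 of the peaks are shown because the results turn on them: the peak of ELOVL6, the peaks of ELOVL2 and SREBF1, which were called in all INX-315 libraries and in no DMSO library, the peak of FASN, called in all 8 Rb libraries, and the peak of SCD, which by summit height rose more in OVCAR-3 than nearly all genes. Each is the GRCh38 reference around the median INX-315 summit, on the strand of the gene, 5′ to 3′. The stretch of SREBF1 stops short of the untranslated part of its internal start. Capitals mark the motif strings that were searched for on both strands.
ELOVL6, chr4:110196731-110197030, minus strand: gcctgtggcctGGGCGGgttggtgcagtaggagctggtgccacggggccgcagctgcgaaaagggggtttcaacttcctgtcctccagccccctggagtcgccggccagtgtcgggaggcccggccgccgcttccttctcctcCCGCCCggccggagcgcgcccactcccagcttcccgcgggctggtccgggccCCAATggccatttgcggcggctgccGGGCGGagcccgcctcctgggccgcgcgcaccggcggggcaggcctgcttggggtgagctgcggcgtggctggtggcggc
ELOVL2, chr6:11043898-11044197, minus strand: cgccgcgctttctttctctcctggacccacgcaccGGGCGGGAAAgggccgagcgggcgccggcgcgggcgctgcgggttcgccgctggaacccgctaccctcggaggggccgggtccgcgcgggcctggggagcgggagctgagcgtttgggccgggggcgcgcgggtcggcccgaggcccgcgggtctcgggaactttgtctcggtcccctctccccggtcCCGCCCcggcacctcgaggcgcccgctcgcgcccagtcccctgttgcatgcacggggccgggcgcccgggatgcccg
SREBF1, chr17:17823619-17823847, minus strand: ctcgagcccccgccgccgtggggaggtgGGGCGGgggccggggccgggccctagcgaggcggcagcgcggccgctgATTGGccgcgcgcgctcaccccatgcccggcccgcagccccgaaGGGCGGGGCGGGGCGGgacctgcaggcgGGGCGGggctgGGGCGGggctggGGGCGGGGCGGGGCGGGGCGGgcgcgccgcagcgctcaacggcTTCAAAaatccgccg
FASN, chr17:82098482-82098781, minus strand: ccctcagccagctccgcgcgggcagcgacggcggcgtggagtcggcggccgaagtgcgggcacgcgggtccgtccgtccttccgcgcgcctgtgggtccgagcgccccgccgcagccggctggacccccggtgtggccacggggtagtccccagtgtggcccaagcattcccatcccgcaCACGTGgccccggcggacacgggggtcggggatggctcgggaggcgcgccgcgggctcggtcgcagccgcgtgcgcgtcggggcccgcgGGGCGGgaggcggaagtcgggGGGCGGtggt
SCD, chr10:100346885-100347184, plus strand: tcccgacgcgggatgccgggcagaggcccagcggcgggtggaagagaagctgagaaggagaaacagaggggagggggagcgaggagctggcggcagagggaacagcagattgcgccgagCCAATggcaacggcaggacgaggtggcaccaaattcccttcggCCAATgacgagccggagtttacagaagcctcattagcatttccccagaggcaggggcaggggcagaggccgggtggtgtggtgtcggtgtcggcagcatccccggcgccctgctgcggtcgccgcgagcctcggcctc

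The strings were the E2F sites TTTGGCGC or TTTCCCGC or TTTCGCGC or TTTGCCGC, the cell cycle homology region TTTGAA, the sterol response element form TCACNCCAC, the E-box CACGTG, the CCAAT box, and the GC box GGGCGG. They were searched in 300-base windows around 11 member summits called in at least 2 INX-315 libraries, with SREBF1 giving 2 windows. An E2F string was found in 1 of the 11 windows, that of ELOVL2, where it overlapped a GC box, against 6.33% of the 11908 summit windows of all genes bound under INX-315 and 3.31% of 34794 RefSeq promoter windows of the same length (GRCh38.p14). The sterol response string was found in none, against 0.966% and 1.12%. The GC box was found in 10 of the 11, with SCD the exception, against 76.7% of summit windows and 44.9% of promoters. The internal SREBF1 window held 11 GC boxes, of which the 229 bases shown hold 10. A CCAAT box was found in 5 windows (25.9% and 34.6%), among them ELOVL6 with 1 and SCD with 2, the E-box in those of FASN and ELOVL4 (6.51% and 7.21%), and TTTGAA in those of ELOVL1 and SREBF1 (5.38% and 15.2%). The GC content of the windows had a median of 75.7%, against 69.7% for all summit windows, and their ratio of observed to expected CpG was 0.932 against 0.852. In the RefSeq promoter windows that matched 9 of the 10 genes, which reach 250 bases upstream and 50 downstream of 1 start, no E2F string was found.

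Peaks of 6 of the genes also touched the promoter window of a neighbouring non-coding RNA, named with ELOVL1, ELOVL2 and ELOVL6 below and being ENSG00000287816 at ELOVL4, ENSG00000271367 at ELOVL5 and ENSG00000231188 at SCD. CUT&RUN peaks carry no strand, so these cannot be told apart from peaks of the member.

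Under DMSO, both OVCAR-3 libraries had a promoter peak at 4 of the 10 genes (ELOVL5, ELOVL7, FASN and SCD), where 26.8% of all protein-coding genes had one. Under INX-315 both OVCAR-3 libraries had one at 9 genes, all but ELOVL3, against 55.5% of all genes. In Kuramochi the number went from 2 (ELOVL1 and FASN), against 24.8% of all genes, to 9, all but ELOVL7, against 53.2%. No gene of the 10 lost its promoter peak in either line, and of all protein-coding genes only 1 did in OVCAR-3 and 3 in Kuramochi. The members were chosen with these calls known, and nothing is read from their shares.

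A promoter was counted as gained when a peak touched it in each treated library of a line and in no DMSO library of that line. In OVCAR-3 the gained genes were ELOVL2, ELOVL6 and SREBF1, 3 of 10, against 16.2% of all genes. Only 4 of the 10 had no promoter peak in either OVCAR-3 DMSO library, and among all genes free of one 27.1% were gained. In Kuramochi 7 were gained (ELOVL2 to ELOVL6, SCD and SREBF1), against 14.0% of all genes and 23.5% of those free of a DMSO peak, among which were 8 of the 10. ELOVL2, ELOVL6 and SREBF1 were gained in both lines, where 5.56% of all genes were.

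**Figure D1:**
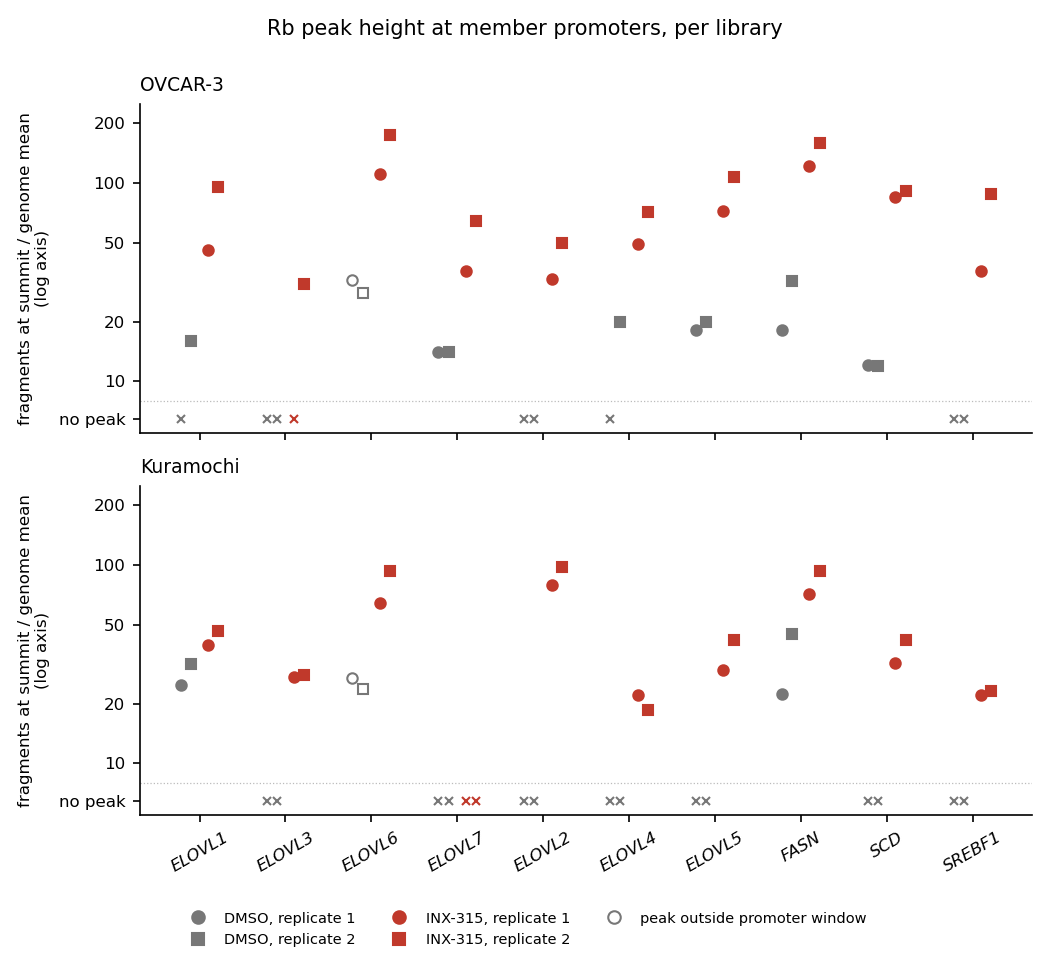
Summit height of the promoter peak with the largest −log10 p of each gene (fragments at the summit over the genome-wide mean of the library, log axis) in OVCAR-3 (top) and Kuramochi (bottom), with 1 point per library. Grey is DMSO, red is INX-315, circles are replicate 1 and squares replicate 2, a cross is a library with no peak, and the open grey symbols at ELOVL6 are DMSO peaks at its INX-315 site that lie outside the promoter window. Wherever both treatments have points, every INX-315 point of a line lies above its DMSO points.

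The gain at ELOVL6 rested on where the promoter window ended. ELOVL6 (chr4:110045846-110199199, minus strand), which elongates palmitate to stearate, had a peak in the 4 DMSO libraries at the same place as its INX-315 peak, in the first intron. The DMSO peaks had 16 and 14 summit fragments in OVCAR-3 (heights of 32.3 and 27.9) and 12 and 9 in Kuramochi (heights of 27 and 23.7). They stood at the 84.2 and 75.9 percentiles of the OVCAR-3 DMSO lists and at 67.1 and 55.4 of the Kuramochi lists, ranked by −log10 p, so they were not marginal calls. These peaks ended 762 and 606 bases (OVCAR-3) and 628 and 864 bases (Kuramochi) short of the window. OVCAR-3 DMSO replicate 1 and Kuramochi DMSO replicate 2 each had a second, weaker peak between, of 10 and 7 fragments, at the 16.4 and 38.6 percentiles, which ended 200 and 350 bases short of it. The INX-315 peaks had their summits 1441 and 1530 bp (OVCAR-3) and 1346 and 1572 bp (Kuramochi) downstream of the nearest annotated start, also outside the window. Their upstream ends reached into it, by 685 and 916 bases in OVCAR-3 and by 92 and 318 bases in Kuramochi. Their widths were 2558, 2998, 1857 and 2083 bp, against 1071, 1372, 1082 and 1098 bp for the highest DMSO peaks at the site. The nearest annotated start, which set the end of the window, belongs to a transcript with no defined coding sequence. With starts of protein-coding transcripts only, ELOVL6 was not gained in Kuramochi.

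**Figure D2:**
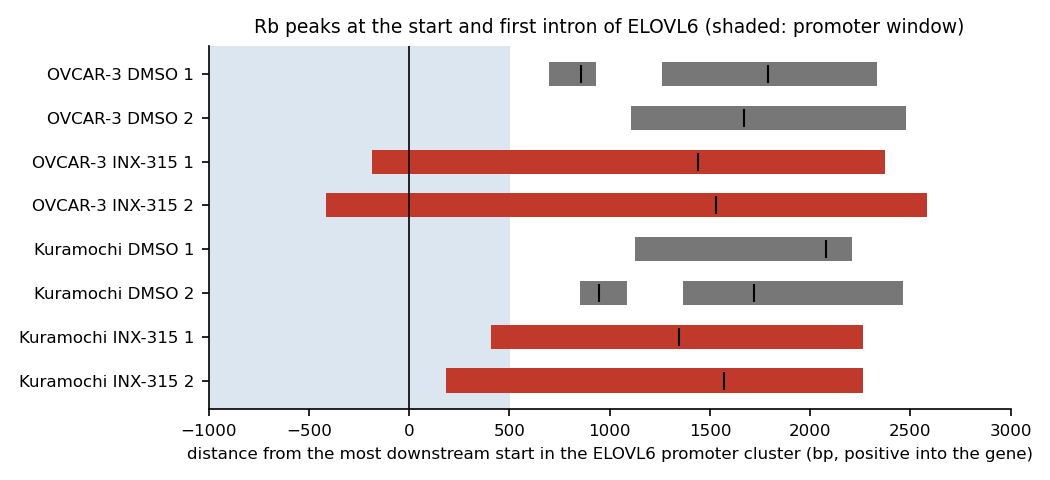
Extent of every Rb peak at ELOVL6 in the 8 Rb libraries, as the distance in bp from the most downstream start of its promoter (vertical line), positive into the gene, with ticks at the summits. The shaded promoter window ends at 500 bp. All 4 grey DMSO libraries have peaks to its right, and the 4 red INX-315 peaks cover the same ground and reach into it.

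Measured at the site and not by the window, ELOVL6 rose in both lines. Its INX-315 peaks had 34 and 73 summit fragments in OVCAR-3 (heights of 111 and 174) and 26 and 20 in Kuramochi (heights of 64.2 and 92.6). The groups did not overlap in either line, and the log2 difference was 2.21 in OVCAR-3 (pooled replicate SD 0.34, n = 2 per group) and 1.61 in Kuramochi (SD 0.28, n = 2 per group). Over all genes with a peak at their site in the 4 libraries of a line, the median log2 difference was 1.78 in OVCAR-3 (quartiles 1.48 and 2.07, 5062 genes) and 1.51 in Kuramochi (quartiles 1.20 and 1.80, 4707 genes), so that 83.6% and 59.1% of genes rose less than ELOVL6.

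A DMSO peak at the site of a gained promoter was rare. In OVCAR-3, 66 of the 3233 gained genes (2.04%) had a DMSO peak overlapping the INX-315 peak, and in 17 (0.526%) both DMSO libraries had one. In Kuramochi these were 39 (1.40%) and 11 (0.394%) of 2790. ELOVL6 was among those with both in each line and was the only one of the 10 genes with any. Counting as gained only genes with no DMSO peak at the site, OVCAR-3 gained 2 of the 10 (ELOVL2 and SREBF1), against 15.9% of all genes, and Kuramochi gained 6, against 13.8%. Both lines gained the same 2, against 5.40%. With a window of 2000 bp on either side of a start, ELOVL6 was bound under DMSO in both lines. The DMSO and INX-315 peaks also overlapped the promoter window of ENSG00000288913, a long non-coding RNA on the opposite strand that starts at chr4:110197678, so the peaks belong to ELOVL6 by position only.

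By the promoter rule, the genes whose ranks over the 8 Rb libraries lay closest to those of ELOVL6 were PYY, FAT4, ZNF549, CDC42BPA and NXNL2, with mean absolute differences of 3.07 to 6.03 percentile points. These had no promoter peak or a low one in the DMSO libraries, at most at the 23.3 percentile. At the site of the INX-315 peak, however, PYY had DMSO peaks that the promoter rule did not count. A peak was called there in 3 of the 4 DMSO libraries, with a fold enrichment of 5.21 in OVCAR-3 DMSO replicate 2, and of 3.51 and 9.42 in the Kuramochi pair. FAT4, CDC42BPA and NXNL2 had the same low DMSO peaks by either rule, and ZNF549 had none. When ranks were taken at the site, an alternative added after the data were seen, the closest were ELAC2, GAS2L1, DCXR, KLHL22 and MED15, which like ELOVL6 had a peak in all 8 libraries, the last pair with identical ranks. None of the first set recurred.

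The other elongases of saturated and monounsaturated chains were ELOVL1, ELOVL3 and ELOVL7. ELOVL1 (chr1:43363398-43368074, minus strand), which makes the very long chains of sphingolipids, had a promoter peak in 7 of the 8 Rb libraries. In OVCAR-3 only DMSO replicate 2 had one, of 8 fragments and a height of 16. Its summit lay 494 bp downstream of the canonical start. The INX-315 libraries had 14 and 40 fragments (heights of 45.7 and 95.1), with summits 244 and 247 bp upstream of that start. In Kuramochi the heights went from 24.7 and 31.6 with DMSO to 39.5 and 46.3 with INX-315, on 10 to 16 fragments. The Kuramochi groups did not overlap, but the log2 difference of 0.61 (SD 0.21, n = 2 per group) was larger than in only 2.59% of genes. Of the 3 members that could be compared in Kuramochi (ELOVL1, ELOVL6 and FASN), ELOVL1 rose the least. The INX-315 peaks were 1086 to 1588 bp wide, their summits lay 141 to 330 bp upstream of the canonical start, and they overlapped the promoter window of the long non-coding RNA ENSG00000288772, and 1 small further peak that of MIR6734.

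ELOVL3 (chr10:102226299-102229589, plus strand), known from skin and brown fat, was the weakest of the elongases in OVCAR-3. No DMSO library of either line had a promoter peak, and under INX-315 OVCAR-3 replicate 1 had none and replicate 2 had 13 fragments (a height of 30.9). The Kuramochi INX-315 libraries had 11 and 6 fragments (heights of 27.2 and 27.8), at a summit 91 and 41 bp upstream of the start. All 8 Rb libraries, DMSO included, had a peak beyond the far end of the gene, in no promoter, which spanned chr10:102229870-102231685 in OVCAR-3 INX-315 replicate 2, where it was widest. Its fold enrichment, the authors' ratio of summit to local background, went from 11.4 and 8.41 with DMSO to 21.6 and 43.1 with INX-315 in OVCAR-3. In Kuramochi it went from 4.81 and 5.65 to 14.2 and 8.67. The ELOVL3 promoter peaks had fold enrichments of 4.85 to 7.97, below that of this neighbouring peak in each library that had both.

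ELOVL7 (chr5:60751791-60844274, minus strand), an elongase of saturated long chains, was the only gene with a peak in every OVCAR-3 library and in no Kuramochi library. Under DMSO its peaks had 7 fragments in each replicate (heights of 14.1 and 14.0) but lay at separate places, with summits 143 and 963 bp downstream of the canonical start. Under INX-315 replicate 1 had a peak at each place and replicate 2 had 1 peak over both, with heights of 35.9 and 64.2. The log2 difference of 1.77 (SD 0.42, n = 2 per group) was at the middle of all genes, with 49.2% below it. The difference between the lines was not tested.

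The elongases of polyunsaturated chains were ELOVL2, ELOVL4 and ELOVL5. ELOVL2 (chr6:10980759-11044305, minus strand), which acts late in the synthesis of docosahexaenoic acid, had no peak in any DMSO library, in the promoter or at the site. Under INX-315 it had 10 and 21 fragments in OVCAR-3 (heights of 32.6 and 49.9) and 32 and 21 in Kuramochi (heights of 79.0 and 97.3). It was the lowest of the 9 bound genes in OVCAR-3 and the highest of the 9 in Kuramochi, and the heights of the lines did not overlap. By geometric mean it stood at 40.4 in OVCAR-3, where the median of 10809 bound genes was 60.8, and at 87.7 in Kuramochi, where the median of 10381 was 57.2. The 4 peaks were 779 to 1067 bp wide and covered the start, while their summits ranged from 72 bp upstream of it to 508 bp downstream. They also touched the promoter window of the antisense ELOVL2-AS1.

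ELOVL4 (chr6:79914814-79947553, minus strand), which makes the ultra-long chains of retina and skin, had 1 DMSO peak, in OVCAR-3 replicate 2, of 10 fragments and a height of 19.9. Under INX-315 the heights were 48.9 and 71.3 in OVCAR-3 and 22.2 and 18.5 in Kuramochi. The last of these rested on 4 fragments, with a 95% Poisson interval of 1.09 to 10.2 that covers counting error only, and stood at the 11.4 percentile of its list. ELOVL4 was the lowest of the 9 genes bound in Kuramochi under INX-315, with 3.2% of bound genes below it.

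ELOVL5 (chr6:53267398-53349179, minus strand), which elongates essential fatty acids, was bound in OVCAR-3 under both treatments. The heights went from 18.2 and 19.9 with DMSO to 71.8 and 107 with INX-315, from 9 and 10 fragments and from 22 and 45. The log2 difference was 2.2 (SD 0.30, n = 2 per group), with 83.3% of genes below. In Kuramochi there was no DMSO peak, and the INX-315 libraries had 12 and 9 fragments (heights of 29.6 and 41.7). The OVCAR-3 INX-315 summits lay 673 and 656 bp downstream of the nearest annotated start, outside the promoter window. The DMSO summits lay 368 and 669 bp downstream, and the Kuramochi INX-315 summits 76 and 604 bp. With the summit required in the promoter, ELOVL5 was not bound in either line under either treatment. A further peak some distance upstream, at chr6:53358898-53360019 in OVCAR-3 INX-315 replicate 1 and in no promoter, was called in the same 6 libraries as the promoter peak.

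FASN (chr17:82078338-82098294, minus strand) was the only gene of the 10 with a promoter peak in all 8 Rb libraries, as had 18.8% of all protein-coding genes. In OVCAR-3 the heights went from 18.2 and 31.9 with DMSO to 121 and 159 with INX-315. In Kuramochi they went from 22.5 and 44.8 to 71.6 and 92.6. The groups did not overlap in either line. The log2 difference was 2.53 in OVCAR-3 (SD 0.45, n = 2 per group), larger than in 96.0% of genes, and 1.36 in Kuramochi (SD 0.53, n = 2 per group), larger than in 37.3%. With ELOVL6 it was the highest of the genes bound in OVCAR-3 under INX-315, both with a geometric mean of 139 and 88.7% of bound genes below. Every summit lay 283 to 419 bp upstream of the canonical start. Small further peaks of 4 and 5 fragments lay at internal FASN starts in 1 OVCAR-3 INX-315 library each.

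SCD (chr10:100347233-100364826, plus strand) had, with FASN, the largest rise in OVCAR-3 among the 5 members with a peak at the site in the 4 libraries. SCD came first by summit height, and FASN by the listed fold enrichment, on which the log2 difference was 2.44 for FASN and 2.37 for SCD. Its DMSO peaks had 6 fragments in each replicate, with a 95% Poisson interval of 2.2 to 13.1, and heights of 12.1 and 12, near the lowest height that could be called. The INX-315 peaks had 26 and 38 fragments and heights of 84.8 and 90.4. The mean height rose 7.27-fold, and the log2 difference of 2.86 (SD 0.05, n = 2 per group) was larger than in 99.4% of genes. Since only genes with a DMSO peak entered this comparison, SCD is among them by a narrow margin, and with a q-value threshold of 0.001 in place of 0.05 its DMSO peaks dropped out and it counted as gained. In Kuramochi no DMSO peak was called, and the INX-315 heights were lower than in OVCAR-3, at 32.1 and 41.7. All 6 peaks had their summits 132 to 252 bp upstream of the start.

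**Figure D3:**
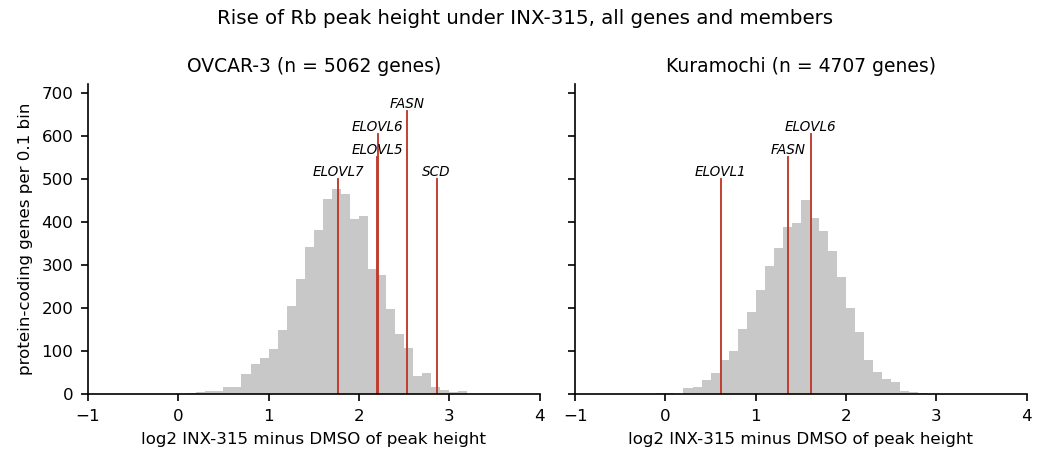
Log2 difference between INX-315 and DMSO in the mean log height of the peak at the site, over 5062 protein-coding genes in OVCAR-3 and 4707 in Kuramochi with a peak at the site in the 4 libraries of the line (grey bars, genes per bin of 0.1). Red lines mark the members that entered: SCD, at 2.86, lies in the upper tail in OVCAR-3 and ELOVL1, at 0.61, in the lower tail in Kuramochi, while ELOVL7 in OVCAR-3 and FASN and ELOVL6 in Kuramochi lie near the middle.

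SREBF1 (chr17:17810399-17837002, minus strand) had Rb peaks at 2 starts, and at neither in any DMSO library. The outer peak had its summit in exon 1, 192 to 251 bp downstream of the canonical start, and the other lay at an internal start within intron 1, 13211 to 13373 bp downstream. Under INX-315 the internal peak had 11 and 29 fragments in OVCAR-3 (heights of 35.9 and 69.0) and 9 and 5 in Kuramochi (heights of 22.2 and 23.2). The outer peak had 12 and 37 fragments in OVCAR-3 (heights of 39.2 and 88.0), 8 in Kuramochi replicate 1 (a height of 19.8), and was not called in Kuramochi replicate 2. The internal start was thus the one called in all 4 INX-315 libraries. The peak with the largest −log10 p was the outer one in OVCAR-3 replicate 2 and the internal one in the other 3 libraries, so the OVCAR-3 order below sets the 2 starts together. In Kuramochi, where both values come from the internal start, the geometric mean was 22.7, with 5.61% of bound genes below. The heights at the internal start did not overlap between the lines, a difference that was not tested.

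Ordered by geometric mean height under INX-315 of the peak with the largest −log10 p, neighbours were mostly not separated by their replicates. In OVCAR-3 only ELOVL6 and FASN stood clear of the rest, with no height below 111, while the heights of ELOVL5, SCD, ELOVL1, ELOVL4, SREBF1, ELOVL7 and ELOVL2 overlapped from each to the next. In Kuramochi the heights of ELOVL2, FASN and ELOVL6 stood clear of those of ELOVL1, SCD and ELOVL5. These stood clear of ELOVL3, and ELOVL3 of SREBF1 and ELOVL4. The lower steps rested on few fragments. ELOVL5, ELOVL3 and SREBF1 had 12, 11 and 9 in INX-315 replicate 1, and 9, 6 and 5 in replicate 2. Their 95% Poisson intervals in replicate 2 were 4.12 to 17.1, 2.2 to 13.1 and 1.62 to 11.7. The intervals overlapped in replicate 1 as well, so the counts do not separate these genes. Every INX-315 height of ELOVL4, ELOVL5, ELOVL6, FASN, SCD and SREBF1 was lower in Kuramochi than in OVCAR-3, and every one of ELOVL2 was higher. The SREBF1 heights used for OVCAR-3 mix its outer and internal starts. How often all genes bound in both lines separate in this way was not computed, so nothing particular to the members is read from it. The median height of bound genes was 60.8 for OVCAR-3, against 57.2 for Kuramochi.

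The genes around these in lipid metabolism were described from 8 lists of 93 genes, none of them a member. OVCAR-3 gained 23 of the 93 (24.7%), where the share over all protein-coding genes was 16.2%, and Kuramochi gained 18 (19.4%), where it was 14.0%. No gene of any list was lost in either line, where only 1 and 3 of all protein-coding genes were. Of 13 SREBP and lipogenic regulators OVCAR-3 gained 6 and Kuramochi gained 3, and of 7 partners of the elongases in the elongation cycle 3 and 1. Of 15 genes of fatty acid synthesis and desaturation 3 and 5 were gained, and 5 others, named after their values were seen (ACLY, ACACA, ACACB, FADS1 and FADS2), had a promoter peak in all 8 libraries, as had 18.8% of all genes. Of the 20 cholesterol synthesis genes, 12 in OVCAR-3 and 11 in Kuramochi were bound already under DMSO, against 26.8% and 24.8% of all genes, and 2 and 3 were gained. Of 11 glycerolipid synthesis genes 3 and 1 were gained, and of 5 acyl-CoA synthetases 2 and 1. Of 6 ceramide synthases 0 and 2 were gained, and of 16 genes of fatty acid oxidation 4 and 2. Those last 2, gained in Kuramochi, had identical fold enrichments in each library with a peak. They may share 1 peak, and both are counted in the 18.

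Gained in both lines were 7 of the 93 (7.53%), against 5.56% of all genes. Among them were TECR, which completes each round of elongation, ACSS2, which makes acetyl-CoA from acetate, OXSM, a mitochondrial fatty acid synthesis enzyme, SCAP, the escort of SREBP to the Golgi, MBTPS2, a protease that releases active SREBP, and the nuclear receptor gene RXRA. The fold enrichment of TECR under INX-315 was 7.65 and 14.1 in the OVCAR-3 libraries, and 13.9 and 9.97 in those of Kuramochi. That of SCAP was 5.67 and 7.01, and 6.41 and 4.93. These values are on the authors' scale of summit over local background, on which the SREBF1 peaks named above had 4.93 to 15.4.

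**Figure D4:**
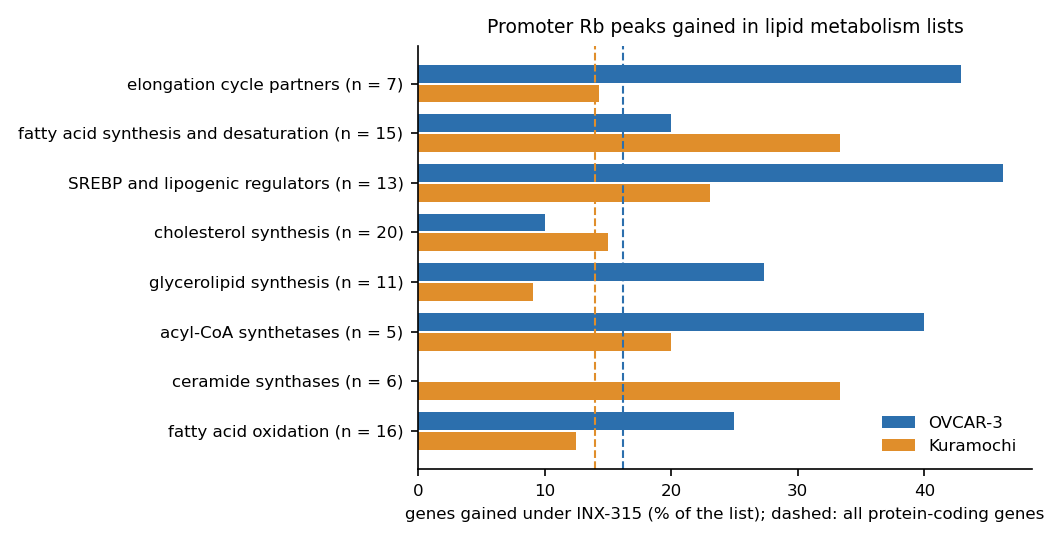
Share of the genes of each lipid metabolism list with a promoter peak gained under INX-315 (percent of the list, bars), in OVCAR-3 (blue) and Kuramochi (orange), with the number of genes beside each name. Dashed lines mark the share over all protein-coding genes, 16.2% in OVCAR-3 and 14.0% in Kuramochi. SREBP and lipogenic regulators lie above both lines, at 46.2% and 23.1%. So do fatty acid synthesis and desaturation (20% and 33.3%) and acyl-CoA synthetases (40% and 20%). Elongation cycle partners lie above the OVCAR-3 line (42.9%) and about at the Kuramochi line (14.3%, 1 of 7 genes). Cholesterol synthesis genes (10%) and ceramide synthases (0%) lie below the OVCAR-3 line. Glycerolipid synthesis (9.09%) and fatty acid oxidation (12.5%) lie below the Kuramochi line. The lists hold only 5 to 20 genes each.

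Heights rose between the groups at nearly all sites, not only at these. In OVCAR-3 the INX-315 heights lay above both DMSO heights at 99.2% of the genes with a peak at the site in the 4 libraries, and in Kuramochi at 97.4%. The rise of single genes is therefore given beside the median of all genes. The genome-wide means were 0.307 and 0.421 fragments per base in the treated OVCAR-3 libraries against 0.495 and 0.501 with DMSO, and 0.405 and 0.216 against 0.445 and 0.380 in Kuramochi, where the groups overlapped. The part of depth and of enrichment efficiency in the rise was not tested. More cells with Rb at a site and more Rb per cell cannot be told apart in these bulk libraries. The lists were longer under INX-315 as well. Each list was also cut to the shortest of its line, 6162 peaks in OVCAR-3 and 5221 in Kuramochi. Fewer gains are built into this cut, since treated lists are then no longer than DMSO lists. The part of list length in the number of gained promoters was therefore not tested. With the lists cut, 1 of the 10 genes was gained in OVCAR-3, against 2.33% of all genes, and 2 in Kuramochi, against 2.03%. ELOVL6 was the gene gained in both, against 0.220% of all genes. Its gain again rested on the promoter window, and it had DMSO peaks at its site in the uncut lists. ELOVL2 was the other one in Kuramochi.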

How the data were processed

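Rb CUT&RUN peak lists of 8 Rb and 2 IgG2a libraries were used, and samples were grouped by their labels. Per the study's methods, the authors trimmed reads, aligned them to hg38 with Bowtie2 2.3.4.1, removed blacklisted and mitochondrial reads, kept duplicates, and called peaks in each library with MACS2 2.2.7.1 at a q-value of 0.05 against the IgG2a library of the line. The deposited lists give a fold enrichment (a ratio of summit to local background), a −log10 p-value and a −log10 q-value as the authors' caller wrote them. No spike-in scaling was applied here.

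The members and the pathway lists were chosen with earlier results of these data known. Promoters were 2000 bp upstream to 500 bp downstream of any GENCODE 44 start, and an overlap of 1 bp counted. Whole fragments were recovered from the fold enrichment and p-value (relative tolerance 3e-05, peaks with −log10 p of 290 or more left out), and summit height is fragments over the lowest background shared by peaks of the library. Since duplicates were kept, intervals cover counting error only. The named genes were the 10 members, genes sharing a promoter peak with them, list genes gained in both lines or lost, and the 5 genes most like ELOVL6. Of the list genes, 1 is not reported here by name. Motif strings were read from GRCh38. Calls and fragment recovery were tested on simulated peaks. Python 3.11.15, pandas 2.3.3, scipy 1.17.1 and pysam 0.24.0 were used. Alternatives were a stricter q, lists of equal length, summits in place of overlaps, other windows and starts, and leaving out each library. The comparison of DMSO peaks at the site of an INX-315 peak and the window of 2000 bp on either side were added after the data were seen.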

Additional observations from a re-analysis of the deposited data

How the results depend on the processing

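No paired analysis was possible because the counts and heights are descriptions with no fitted test, and the labels give replicate numbers without saying that they pair libraries. With lists of equal length, the number of the 10 genes bound fell from 4 to 1 in OVCAR-3 under DMSO and from 9 to 3 in Kuramochi under INX-315, and the number gained from 3 to 1 in OVCAR-3, from 7 to 2 in Kuramochi and from 3 to 1 in both lines. A fall in gained genes is built into that cut. With a q-value of at most 0.001, 2 genes were bound in OVCAR-3 under DMSO, against 23.3% of all genes. With the summit required in the promoter, 1 gene (SREBF1) was gained in OVCAR-3 and 1 in both lines, against 15.7% and 5.38% of all genes. The other window and start settings, and the stricter q and summit rule elsewhere, kept each count within 1.5 times, but not always with the same genes. With a narrower promoter window, or with starts of protein-coding transcripts only, ELOVL6 was neither bound under INX-315 nor gained in Kuramochi. With the narrower window ELOVL5 took the place of ELOVL6 among the genes gained in both lines. A window 2000 bp on either side, and the rule that no DMSO peak lie at the site, both left ELOVL2 and SREBF1 as the genes gained in both lines.

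Leaving out each library in turn gave 4 to 6 genes bound in OVCAR-3 under DMSO, 9 to 10 under INX-315, 2 and 9 in Kuramochi, and 3 to 5 genes gained in OVCAR-3 (5 without DMSO replicate 2, which alone had the DMSO peaks of ELOVL1 and ELOVL4), 7 in Kuramochi and 3 to 4 in both lines. Shares over all genes were not computed with a library left out. On the scale of listed fold enrichment the median log2 difference of all genes fell from 1.78 to 1.43 in OVCAR-3 and from 1.5 to 1.12 in Kuramochi. FASN then rose more in OVCAR-3 (2.44) than SCD. The differences of SCD (2.37), ELOVL5 (1.73) and ELOVL1 (0.29) moved by more than the replicate SD, and none changed sign. Each group had 2 libraries, so a difference of 1 or 2 genes between counts rests on single peaks of a few fragments.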
